A study of Homo sapiens with 40 samples.

Results

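The mRNAs of 30 nucleoporins, the proteins that build the nuclear pore, were followed through 40 RNA-Seq libraries of HEK293 cells, an established human embryonic kidney cell line. The members were chosen by gene symbol, and all 30 were found among the 55765 symbols counted in each library. All 30 passed the filter on low counts in every fit, and the lowest count of any member in any library was 274. NUPL1 and NUPL2 are older symbols of NUP58 and NUP42, and the older symbols are kept here.

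Nuclear pores are large protein channels that span the nuclear envelope and carry all regulated traffic of proteins and RNA between nucleus and cytoplasm. Outer rings made of the Y complex and an inner ring form the scaffold, and membrane nucleoporins anchor it in the envelope. Nucleoporins rich in phenylalanine-glycine repeats fill the central channel and bind transport receptors, while filaments on the cytoplasmic face and a basket on the nuclear face serve mRNA export and the Ran cycle.

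The libraries fell into 12 groups from 3 experiments. In the RNA immunoprecipitation experiment (RIP), RNA bound to endogenous eIF4A1, eIF4A2 or DDX6 was recovered with an antibody to each protein (IP) and sequenced beside total RNA of the same untransfected cells, with n = 3 per group. eIF4A1 and eIF4A2 are paralogous DEAD-box helicases linked to translation initiation and to repression, and DDX6 is a DEAD-box protein of repressed and decaying mRNA. No IP with a control antibody was among the groups analysed here, and the antibodies select proteins, so an mRNA level is not a direct check of these labels. The gradient experiment used cells given control siRNA or CNOT1 siRNA, CNOT1 being the protein on which Ccr4-Not, the main deadenylase complex, is assembled. Input RNA was sequenced beside 2 pools from a sucrose gradient, fractions 1 to 5 (subpolysomal RNA) and fractions 6 to 11 (polysomal RNA), with n = 4 per group. In the TNRC6 experiment, total RNA was sequenced from cells with control siRNA or with siRNAs against TNRC6A and TNRC6B together, 2 proteins that join Argonaute to Ccr4-Not, with n = 2 per group. siRNA lowers a transcript without removing it. Nothing in the labels says that replicates were separate cultures, so the p-values measure only the spread between these libraries, which may be technical.

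Library totals ran from 15.4 to 46.0 M counts (M stands for mega). Values below are CPM, counts divided by the TMM-scaled library total in M, and are comparable within an experiment or a pool of fractions only. EIF4A2 mRNA averaged 945 CPM in the eIF4A2 IP, 455 in the eIF4A1 IP and 484 in the DDX6 IP. DDX6 mRNA averaged 514 CPM in the DDX6 IP, 265 in the eIF4A1 IP and 215 in the eIF4A2 IP. EIF4A1 mRNA averaged 1.79 CPM in the eIF4A1 IP, 6.74 in the eIF4A2 IP and 2.14 in the DDX6 IP. The cause of these differences was not tested. CNOT1 fell by 4.07 on the log2 scale in input RNA (SE 0.06) and by 1.76 in subpolysomal RNA (SE 0.12). In polysomal RNA, CNOT1 stood at 478, 509 and 487 CPM in the libraries labelled control siRNA replicates 1, 2 and 4, but at 28.8 in the library labelled replicate 3. With CNOT1 siRNA, the polysomal library labelled replicate 3 had CNOT1 at 643 CPM, and the other 3 of its group had 24.5 to 32.3 CPM. These 2 libraries go against their labels, so the counts and the values of named members in polysomal RNA are given with and without both. TNRC6A fell from 178 and 189 CPM to 40.5 and 64.7, and TNRC6B from 67.6 and 73.1 to 17.7 and 26.3. Without a replicate block, the fit of that experiment passed no gene at the threshold used here.

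The study asked how eIF4A2 and Ccr4-Not act through purine-rich stretches ahead of the start codon, so the last 30 bases before the start codon are shown for 4 members. NUP50 and NUP107 are the members that were higher in the eIF4A2 IP than in the DDX6 IP, and TPR and SEC13 were the most depleted from the eIF4A1 and the eIF4A2 IP. Sequences and positions are those of GENCODE release 44 transcripts on GRCh37, written 5′ to 3′ in the mRNA sense. Capitals mark purine tetramers, searched on the mRNA strand alone with overlapping matches counted once. The tetramers searched were AAGA and AGAA, then GAAA and GAGA, then AGAG and GGAA, and last AAAA and GAAG.
NUP107, chr12:69080816-69080845, plus strand: ctttggttgtgtgtGGAAaaggctttagcc
NUP50, chr22:45560158-45564058, plus strand, joined across an intron: cagcggcggccgccgaggaggttcGAAAac
TPR, chr1:186344161-186344190, minus strand: gctgccactggggtccctggccccaccgac
SEC13, chr3:10362737-10362766, minus strand: ccGAGAcctggagcagccaccgccgcaatc
All 4 windows lie in annotated 5′UTRs. NUP107, NUP50 and SEC13 held 1 tetramer each and TPR held none. Of the 24 members whose 5′UTR fills the window, 11 held at least 1 tetramer (45.8%), beside 45.0% of 12406 genes tested in the RIP experiment. The other 6 members have a 5′UTR shorter than 30 bases. The paper looked at the last 50 bases of the 5′UTR. There the median was 1 tetramer for 20 members and for 11426 genes. Of the 20 members 3 lay above it, and the upper quartile of all genes was 2. Over the whole 5′UTR the median was 1.17 tetramers per 100 nt for 28 members and 1.68 for 13077 genes. Of the 28 members 10 lay above the median of all genes.

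Nucleoporin mRNAs had long coding regions and short 5′UTRs. The median coding region was 2343 nt, against 1431 nt over 13671 genes, and 22 of 30 members lay above that value. SEC13 had the shortest coding region (969 nt) and RANBP2 the longest (9675 nt). The median 5′UTR was 96.5 nt for the members and 146 nt for all genes, and the median number of exons was 18.5 and 9. The median number of purine tetramers per 100 nt of coding region was 3.02 for the members and 3.00 for all genes. It ranged from 1.47 in NUP62, a protein of the central channel, to 5.65 in TPR, the large coiled-coil protein of the nuclear basket. In RIP total RNA, expressed per kb of mRNA, the level was lowest for NUP214 (13.5 CPM per kb) and highest for NDC1 (94.4 CPM per kb), with SEC13 next at 91.5.

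The first question was how much nucleoporin mRNA each DEAD-box protein brought down. The 30 mRNAs were depleted from all IPs as a sum: they made up 6060.5 to 6512 CPM in the 3 total RNA libraries, 3298 to 3931 in the eIF4A1 IP, 3918 to 4286 in the eIF4A2 IP and 3591 to 4178 in the DDX6 IP. In the eIF4A1 IP, 22 members were lower than in total RNA and 1 was higher, where 26.5% of all genes tested were lower and 26.1% higher. In the eIF4A2 IP, 20 were lower and 0 higher, where 25.8% of all genes were lower and 24.5% higher. In the DDX6 IP, 21 were lower and 0 higher, where 23.3% were lower and 22.7% higher. The median log2 fold change of the members was -0.80, -0.71 and -0.67 in these IPs, beside 0.04, 0.01 and 0.01 for all genes. Same-numbered RIP libraries deviated together, and with the replicate number as a block 26, 22 and 24 members were lower in the eIF4A1, eIF4A2 and DDX6 IPs, where 32%, 31.9% and 30.4% of all genes were. The 3 comparisons share the same total RNA libraries, so they are not independent of each other. A log2 fold change here is relative to the other mRNAs of the same library and does not measure the amount of RNA recovered.

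**Figure D1:**
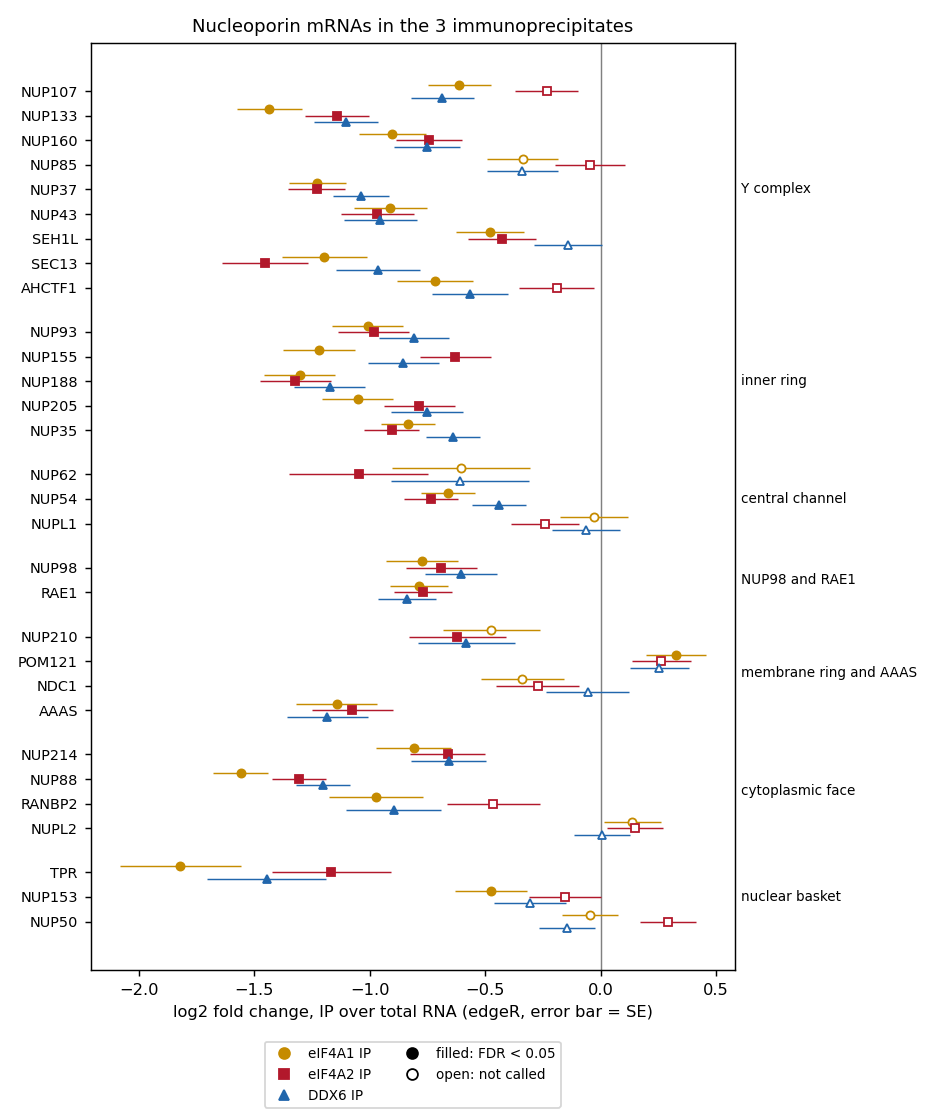
Log2 fold change of each nucleoporin mRNA in the eIF4A1, eIF4A2 and DDX6 IPs over total RNA (x axis, error bars are SE, n = 3 per group), grouped by place in the pore; filled symbols passed FDR below 0.05. Most symbols lie left of 0, with TPR lowest at -1.82 in the eIF4A1 IP and POM121 highest at 0.33.

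TPR, NUP88, SEC13 and NUP188 led the depletion. TPR held 490, 499.6 and 599 CPM in total RNA and 105, 152 and 193 CPM in the eIF4A1 IP (log2 fold change -1.82, SE 0.26, FDR = 8.51e-05). In the DDX6 IP it held 240, 148 and 196 CPM (log2 fold change -1.45, SE 0.26, FDR = 0.000634). The TPR ranges did not overlap with total RNA in either IP, although the IP libraries themselves spread widely. NUP88, a partner of NUP214 on the cytoplasmic face, held 118, 127 and 105 CPM in total RNA and 39.5, 39.9 and 39.3 CPM in the eIF4A1 IP (log2 fold change -1.56, SE 0.12, FDR = 1.18e-06). Its DDX6 IP libraries held 51.9, 50.6 and 49.3 CPM (log2 fold change -1.20, SE 0.12, FDR = 1.38e-05). The 3 libraries of each IP were close together and well below total RNA. RABEP1 and RPAIN on the opposite strand overlap 40.4% of the NUP88 exonic length, and whether counting used the strand was not stated.

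SEC13, which the Y complex shares with the COPII coat of secretory vesicles, held 131, 150 and 92.4 CPM in total RNA and 41.3, 47.7 and 47.3 CPM in the eIF4A2 IP (log2 fold change -1.45, SE 0.19, FDR = 3.28e-05). NUP188 of the inner ring held 410, 435 and 304 CPM in total RNA and 155, 140 and 164 CPM in the eIF4A2 IP (log2 fold change -1.32, SE 0.15, FDR = 1.55e-05). For both, every eIF4A2 IP library lay below every total RNA library, and total RNA replicate 3 was the lowest of its group.

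**Figure D2:**
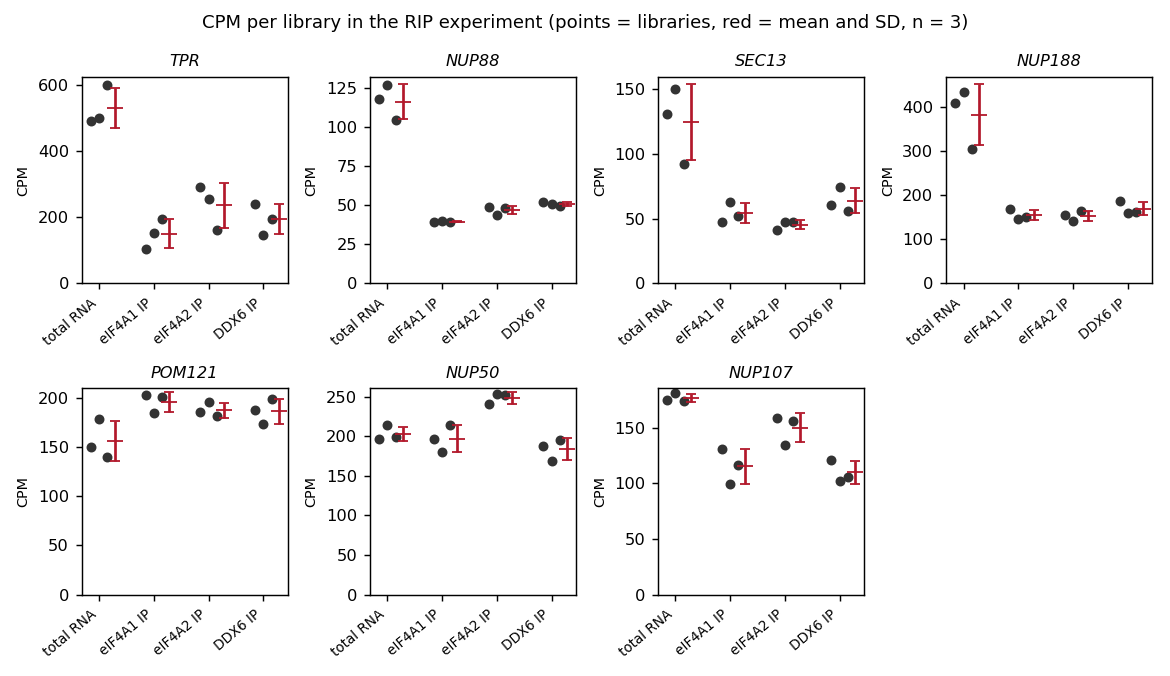
CPM of 7 nucleoporin mRNAs in each RIP library (y axes start at 0; points are libraries, red marks the mean and SD, n = 3). TPR, NUP88, SEC13 and NUP188 fall clear of total RNA in every IP, whereas POM121, NUP50 and NUP107 differ by less.

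By place in the pore, all 5 inner ring mRNAs (NUP93, NUP155, NUP188, NUP205 and NUP35) were lower in each IP, with medians of -1.05 in the eIF4A1 IP, -0.91 in the eIF4A2 IP and -0.81 in the DDX6 IP. NUP98 and its mRNA export partner RAE1 were also lower in each, between -0.61 and -0.84. Of the 9 Y complex mRNAs, 8 were lower in the eIF4A1 IP, 6 in the eIF4A2 IP and 7 in the DDX6 IP. NUP85 was called in none of them, with log2 fold changes of -0.34, -0.05 and -0.34 (SE 0.15 each). In the central channel, NUP54 was lower in each IP (-0.66, -0.73 and -0.44), and NUP62 was lower in the eIF4A2 IP (-1.05, SE 0.30) on widely spread libraries of 106, 103 and 41.7 CPM. On the cytoplasmic face, NUP214, which docks export factors, and NUP88 were lower in each IP. RANBP2, the SUMO ligase of the cytoplasmic filaments, was lower in the eIF4A1 and DDX6 IPs. Reads of RANBP2 may be shared with its RGPD copies, and those of POM121 with POM121C, so both are uncertain.

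Membrane and basket mRNAs were mixed. AAAS, which NDC1 holds at the pore, was lower in each IP (-1.14, -1.08 and -1.18, SE 0.18 each). NUP210 was lower in the eIF4A2 and DDX6 IPs. It held 138, 144 and 152 CPM in total RNA, 86.9, 76.0 and 119 CPM in the eIF4A2 IP and 95.3, 75.7 and 119 CPM in the DDX6 IP. POM121, a membrane nucleoporin, was the 1 member called higher in an IP without the replicate block: it held 150, 179 and 140 CPM in total RNA and 202, 184 and 201 CPM in the eIF4A1 IP (log2 fold change 0.33, SE 0.13, FDR = 0.0465). These ranges did not overlap, but the highest total RNA library and the lowest IP library were close. The call was lost without total RNA replicate 1 or 3 or without any 1 of the eIF4A1 IP libraries (log2 fold change 0.25 to 0.36, FDR 0.0511 to 0.155). NDC1, NUPL1 and NUPL2 were called in none of the IPs, with log2 fold changes between -0.34 and 0.15. NUP50, a basket protein that helps importin release cargo, was not called either (-0.04, 0.29 and -0.15, SE 0.12 each), but with the block it was called higher in the eIF4A2 IP (0.29, SE 0.10, FDR = 0.0245). NUP153 was lower in the eIF4A1 IP (-0.48, SE 0.16). TPR, besides its falls in the eIF4A1 and DDX6 IPs, was lower in the eIF4A2 IP (-1.17).

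Comparing IPs with each other asked whether the paralogs and DDX6 differed in the nucleoporin mRNAs they recovered. Between the eIF4A2 and DDX6 IPs, 2 members were higher in the eIF4A2 IP and 0 were lower, where 9.82% of all genes were higher and 11.3% lower. NUP107, a core Y complex subunit, held 159, 135 and 156 CPM in the eIF4A2 IP and 121, 102 and 106 CPM in the DDX6 IP (log2 fold change 0.45, SE 0.14, FDR = 0.0326). NUP50 held 240, 253 and 253 CPM in the eIF4A2 IP and 187, 168 and 195 CPM in the DDX6 IP (log2 fold change 0.44, SE 0.12, FDR = 0.0239). Neither pair of ranges overlapped. The NUP107 call was lost without eIF4A2 IP replicate 1 or 3 or DDX6 IP replicate 2 or 3 (FDR 0.0846 to 0.121). The NUP50 call was lost without any eIF4A2 IP library or DDX6 IP replicate 1 or 2 (FDR 0.0551 to 0.104).

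With the replicate number as a block, 4 members were higher in the eIF4A2 IP than in the DDX6 IP (NUP107, NUP50, RANBP2 and AHCTF1) and 4 were lower (SEC13, SEH1L, NUP54 and NUP35), where 18.5% of all genes were higher and 22% lower. Between the eIF4A2 and eIF4A1 IPs, 0 members were called by edgeR without the block, where 0.973% of all genes were higher in the eIF4A2 IP and 0.0858% lower. With an unadjusted p under 0.05, 7 members were higher and 0 lower, beside 9.43% and 8.41% of all genes, and in DESeq2 3 were higher, beside 2.71% of all genes. With the block, 5 were higher in the eIF4A2 IP and 0 lower, where 7.12% and 8.7% of all genes were higher and lower. These were NUP155 (0.59, SE 0.12), AHCTF1 (0.53, SE 0.14), RANBP2 (0.53, SE 0.14), NUP107 (0.38, SE 0.10) and NUP50 (0.34, SE 0.10). AHCTF1, also named ELYS, seeds pore assembly on chromatin. Between the DDX6 and eIF4A1 IPs, edgeR called 0 members without the block, where 0.0801% of all genes were higher in the DDX6 IP and 0.0114% lower. With an unadjusted p under 0.05, 4 members were higher and 0 lower, beside 7.67% and 6.28% of all genes, and in DESeq2 1 was higher, beside 3.19%. With the block NUP88 and SEH1L were higher (0.35 and 0.34), where 6.08% and 3.82% of all genes were higher and lower.

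Purine content of the coding region was set beside the members' fold changes. Across the 30 members, the log2 fold change of the eIF4A2 over the eIF4A1 IP had a Pearson r of 0.737 and a Spearman rho of 0.608 with the number of purine tetramers per 100 nt of coding region. Over 13671 genes the values were 0.131 and 0.159. With the same density, r was -0.312 for the eIF4A1 IP over total RNA, 0.072 for the eIF4A2 IP over total RNA and 0.596 for the eIF4A2 over the DDX6 IP, and these comparisons share libraries. With tetramers in the 5′UTR, r was -0.159 over 28 members and 0.081 over 13077 genes. With coding length, r was 0.564 over the members and 0.386 over all genes. TPR had both the highest tetramer density (5.65) and the highest log2 fold change (0.65, SE 0.26, not called), and NUP62 both the lowest density and the lowest fold change (-0.44, SE 0.30, not called). These values describe genes measured in the same 6 libraries, which are not independent replicates, and they are among 24 relations computed for the members, of which 0.737 was the largest r in size.

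The next question was where nucleoporin mRNAs sat in the gradient under control siRNA. Most were higher in the polysomal pool relative to other mRNAs: 19 members were higher in polysomal than in subpolysomal RNA and 1 was lower, where 32.7% of all genes were higher and 35.3% lower. The pools were sequenced as separate libraries, so the ratio does not measure what share of an mRNA was on polysomes. The median log2 ratio was 0.59 for the members and -0.03 for all genes. Without both polysomal libraries of replicate 3, 18 members were higher and 1 lower, with 32.2% and 37% of all genes and a median of 0.53 beside -0.09. AHCTF1 was the member called with those libraries (0.54, SE 0.23) and not without them (0.13). The share of counts taken by the 30 mRNAs was not even across the group: the sum was 4803 to 5124 CPM in control polysomal replicates 1, 2 and 4 and 7022 CPM in the library labelled replicate 3. In control subpolysomal RNA it was 3299 to 4020 CPM.

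NUP210 had the highest ratio. This membrane glycoprotein's mRNA held 15.7, 14.5, 27.3 and 19.6 CPM in subpolysomal replicates 1 to 4 and 79.9, 62.6, 90.9 and 57.0 CPM in polysomal replicates 1 to 4 (log2 ratio 1.92, SE 0.20, FDR = 1.8e-07, and 1.80, SE 0.20, without both libraries of replicate 3). NUP37, a Y complex subunit, held 22.2, 24.4, 17.5 and 16.9 CPM in subpolysomal and 49.6, 59.6, 56.5 and 52.9 CPM in polysomal RNA (log2 ratio 1.43, SE 0.15, FDR = 1.19e-07, and 1.42, SE 0.14, without them). For both, every polysomal library lay above every subpolysomal library, with or without replicate 3. NUPL2, a nucleoporin of the cytoplasmic face that takes part in mRNA export, was on the other side. It held 103, 78.8, 92.5 and 68.1 CPM in subpolysomal and 50.6, 57.6, 55.5 and 57.8 CPM in polysomal RNA (log2 ratio -0.63, SE 0.13, FDR = 0.000362, and -0.62, SE 0.13, without the libraries of replicate 3). The NUPL2 ranges did not overlap, and 36.0% of its exonic length is overlapped by an opposite-strand gene.

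**Figure D3:**
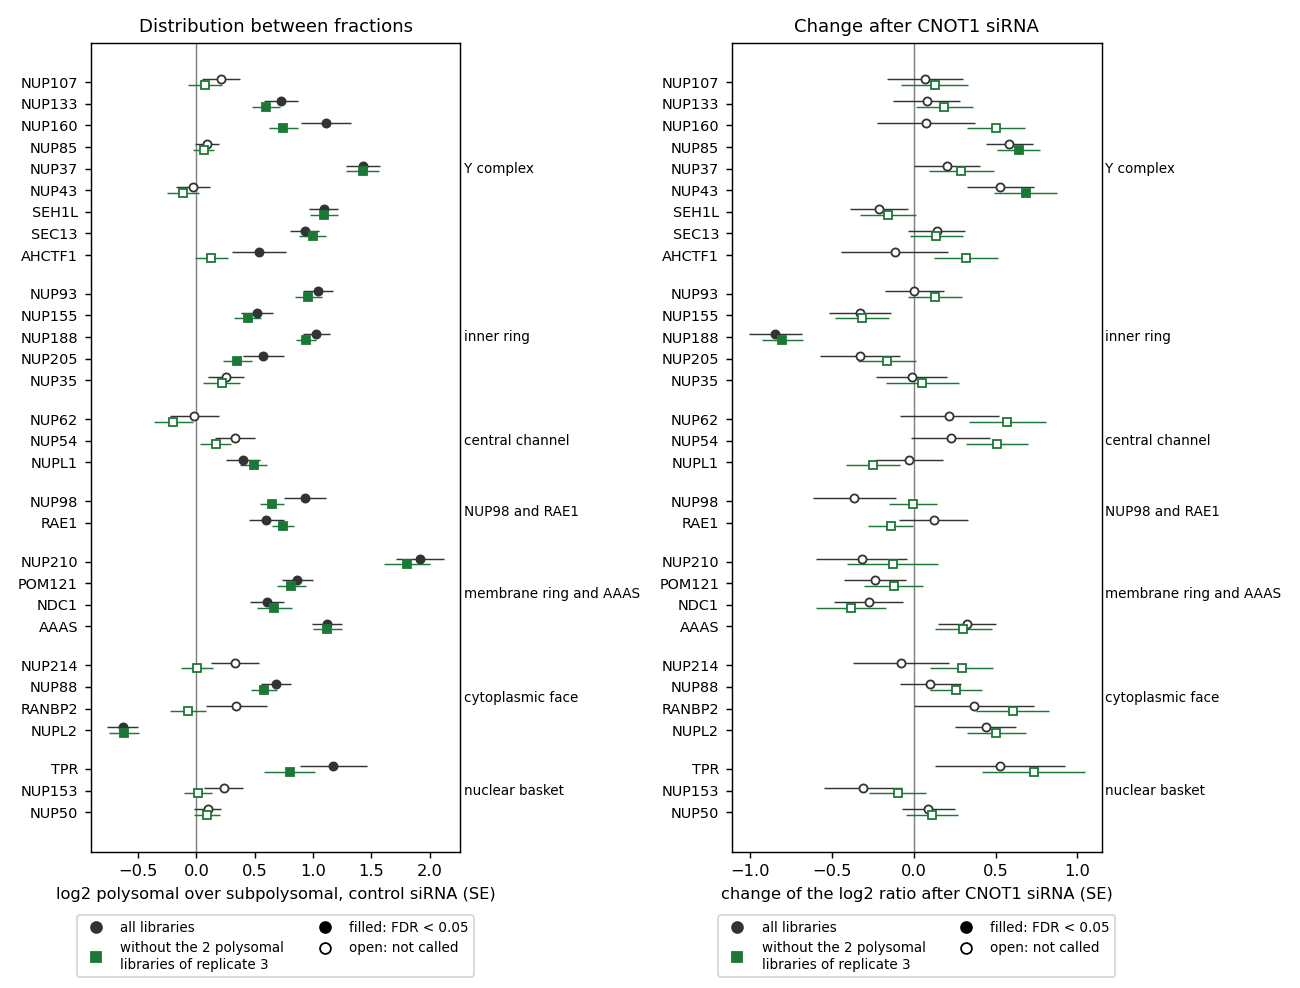
Left, log2 ratio of polysomal over subpolysomal RNA with control siRNA for each nucleoporin mRNA; right, change of that ratio after CNOT1 siRNA (error bars are SE; circles use all libraries, squares leave out both polysomal libraries of replicate 3, filled symbols passed FDR below 0.05). NUP210 is farthest right at 1.92 in the left panel, NUPL2 is the 1 member with filled symbols left of 0 there, and NUP188 is lowest in the right panel at -0.84.

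All 4 mRNAs of the membrane ring and AAAS were higher in polysomal RNA (NUP210, AAAS 1.12, POM121 0.87 and NDC1 0.60), as were NUP98 (0.93) and RAE1 (0.60). Without the libraries of replicate 3 all of these were still higher, AAAS at 1.12, POM121 at 0.81, NDC1 at 0.67, NUP98 at 0.65 and RAE1 at 0.74. In the Y complex, 6 of 9 were called higher, with NUP107, NUP85 and NUP43 near 0 (0.21, 0.09 and -0.03), and 5 of 9 without replicate 3. In the inner ring, 4 of 5 were higher, from 0.52 for NUP155 to 1.04 for NUP93, and 4 of 5 without replicate 3, from 0.35 for NUP205 to 0.96 for NUP93. NUP35, which has the shortest coding region of the ring, was not called (0.25, SE 0.15, and 0.22, SE 0.16, without replicate 3). In the central channel NUPL1 was higher (0.40, SE 0.15, and 0.49, SE 0.12, without replicate 3), and NUP54 and NUP62 were not called (0.33 and -0.02, and 0.17 and -0.20 without it). NUP214, RANBP2, NUP153 and NUP50 were not called either, with log2 ratios of 0.10 to 0.34, or -0.07 to 0.09 without replicate 3. TPR was higher with those libraries (1.17, SE 0.28) and without them (0.80, SE 0.22).

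In input RNA after CNOT1 siRNA, 12 members rose and 4 fell, where 30.9% of all genes rose and 30% fell. The summed level was 6186 to 6538 CPM with control siRNA and 6622 to 7394 CPM with CNOT1 siRNA, and the median log2 fold change was 0.09 beside 0.00 for all genes. With the replicate block 14 rose and 4 fell, beside 33.4% and 32.9% of all genes. In 1 fit of all 24 gradient libraries, 5 members rose and 2 fell, beside 13.4% and 15.6% of all genes. NUP62 held 119, 111, 115 and 103 CPM with control siRNA and 167, 184, 165 and 169 CPM with CNOT1 siRNA (log2 fold change 0.61, SE 0.06, FDR = 2.92e-07). AHCTF1 held 192, 185, 181 and 199 CPM with control siRNA and 301, 272, 299 and 251 CPM with CNOT1 siRNA (log2 fold change 0.57, SE 0.06, FDR = 1.37e-06). Both groups of each were well apart. NUP62 exons are overlapped over 20.4% of their length by same-strand genes that include IL4I1.

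RAE1 and NUPL1 fell. RAE1, an mRNA export factor bound to NUP98, held 84.4, 91.0, 78.2 and 91.0 CPM with control siRNA and 59.7, 61.4, 59.8 and 60.6 CPM with CNOT1 siRNA (log2 fold change -0.51, SE 0.06, FDR = 1.76e-06). NUPL1, a channel partner of NUP62 and NUP54, held 200.0, 211, 206 and 209 CPM with control siRNA and 154, 168, 154 and 147 CPM with CNOT1 siRNA (log2 fold change -0.41, SE 0.05, FDR = 7.64e-06). The ranges did not overlap for either mRNA. Some proteins that work as partners had mRNAs that moved opposite ways: NUP98 rose (0.48, SE 0.06) while RAE1 fell, and NUP62 and NUP54 (0.45, SE 0.05) rose while NUPL1 fell. The other mRNAs that rose were NUP160 (0.54), NUP214 (0.43), NUP153 (0.27), POM121 (0.26), NUP210 (0.23), NUP43, NUP88 and NUP37 (0.22, 0.22 and 0.16). NDC1 (-0.15) and AAAS (-0.13) fell by small amounts, and leaving out CNOT1 siRNA input replicate 3 left 2 members that fell. None of the 5 inner ring mRNAs passed the test, with log2 fold changes of -0.01 to 0.13.

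**Figure D4:**
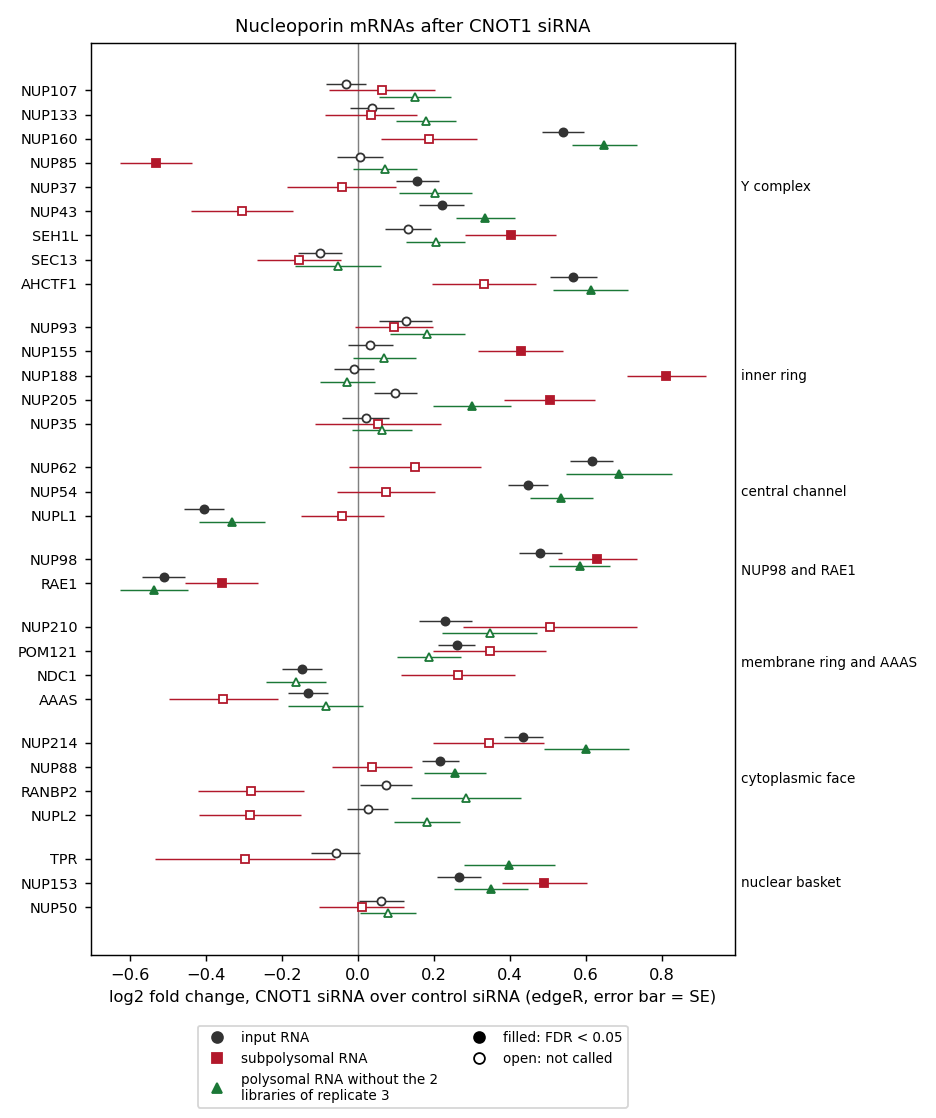
Log2 fold change of each nucleoporin mRNA after CNOT1 siRNA in input RNA, subpolysomal RNA (n = 4 per group) and polysomal RNA without the libraries labelled replicate 3 (n = 3 per group); error bars are SE and filled symbols passed FDR below 0.05. NUP188 is highest at 0.81 in subpolysomal RNA, while its input and polysomal values lie near 0.

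In subpolysomal RNA after CNOT1 siRNA, 6 members rose and 2 fell, where 12.6% of all genes rose and 15.2% fell. NUP188 held 170, 161, 184 and 164 CPM with control siRNA and 284, 287, 283 and 315 CPM with CNOT1 siRNA (log2 fold change 0.81, SE 0.10, FDR = 0.000897). NUP98, the mobile channel protein, held 169, 159, 144 and 141 CPM with control siRNA and 251, 218, 252 and 206 CPM with CNOT1 siRNA (log2 fold change 0.63, SE 0.10, FDR = 0.00251). No control library reached the lowest CNOT1 siRNA library in either case. NUP85, a Y complex subunit, held 120, 106, 117 and 115 CPM with control siRNA and 80.4, 77.1, 74.95 and 77.1 CPM with CNOT1 siRNA (log2 fold change -0.53, SE 0.09, FDR = 0.00314). RAE1 held 64.3, 59.7, 58.8 and 62.4 CPM with control siRNA and 49.9, 49.1, 44.3 and 43.8 CPM with CNOT1 siRNA (log2 fold change -0.36, SE 0.10, FDR = 0.0187). The ranges of both mRNAs stayed apart, but the RAE1 call was lost without control replicate 1, 3 or 4 or CNOT1 siRNA replicate 3 or 4 (FDR 0.0501 to 0.0902).

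NUP205 (0.50), NUP153 (0.49), NUP155 (0.43) and SEH1L (0.40) rose as well, so that 3 of the 5 inner ring mRNAs rose in subpolysomal RNA. Same-numbered subpolysomal libraries deviated together. With the replicate number as a block, 12 members rose and 7 fell, where 27% of all genes rose and 31.2% fell. The members added to those that rose were NUP210, POM121, NUP214, AHCTF1, NDC1 and NUP160, and those added to the falls were AAAS, TPR, NUP43, RANBP2 and NUPL2.

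**Figure D5:**
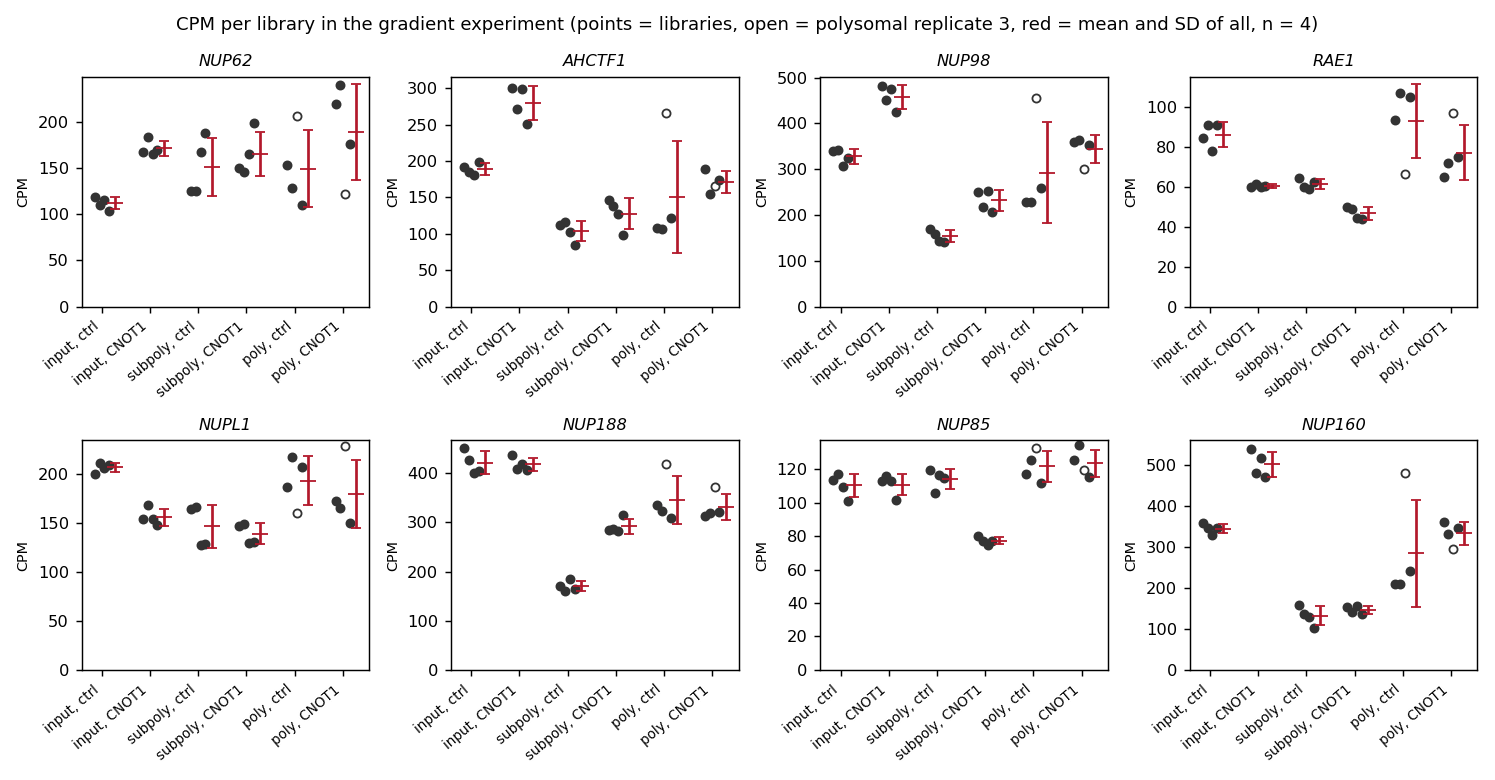
CPM of 8 nucleoporin mRNAs in each gradient library (y axes start at 0; points are libraries, open points are the polysomal libraries labelled replicate 3, red marks the mean and SD of all 4). NUP188 with CNOT1 siRNA is raised in subpolysomal RNA, NUP85 is lowered there, and the open control polysomal point of NUP160 lies at 480 CPM above the others.

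In polysomal RNA, edgeR called 0 of the 30 members after CNOT1 siRNA when all 8 libraries were used, and 0% of all genes in either direction. Of all 14474 genes, 38 were higher and 61 lower with an unadjusted p under 0.05, none of them members, and 0 genes passed in DESeq2. Without both libraries labelled replicate 3, 11 members rose and 2 fell, where 21.8% of all genes rose and 18.9% fell. NUP62 then held 154, 128 and 110 CPM with control siRNA and 220, 240 and 176 CPM with CNOT1 siRNA in replicates 1, 2 and 4 (log2 fold change 0.69, SE 0.14, FDR = 0.00394). NUP160, a Y complex subunit, held 208, 209 and 240 CPM with control siRNA and 360, 330 and 347 CPM with CNOT1 siRNA (log2 fold change 0.65, SE 0.09, FDR = 0.000498). In the libraries labelled replicate 3 the order was the opposite for both: NUP62 was at 207 CPM with control and 122 CPM with CNOT1 siRNA, and NUP160 at 480 and 296 CPM. RAE1 (-0.54, SE 0.09) and NUPL1 (-0.33, SE 0.09) were the 2 members that fell without replicate 3.

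The change of the polysomal to subpolysomal ratio after CNOT1 siRNA was tested as an interaction. One member, NUP188, was called lower, where 0.376% of all genes were lower, and 0 were higher, where 0.576% were (3 members were higher with an unadjusted p under 0.05, beside 8.9% of all genes, and 1 in DESeq2, beside 2.07%). The NUP188 ratio changed by -0.84 on the log2 scale (SE 0.16, FDR = 0.0225). Its subpolysomal level rose as described above, while its polysomal level in replicates 1, 2 and 4 was 335, 324 and 309 CPM with control siRNA and 314, 320 and 322 CPM with CNOT1 siRNA, ranges that overlapped. The polysomal libraries labelled replicate 3, whose CNOT1 counts oppose their labels, held 418 CPM (labelled control) and 372 CPM (labelled CNOT1 siRNA). Its input level was 401 to 452 CPM with control siRNA and 406 to 437 CPM with CNOT1 siRNA. The call was lost without control subpolysomal replicate 1 or 4, CNOT1 siRNA subpolysomal replicate 2 or CNOT1 siRNA polysomal replicate 1, 2 or 4, with values of -0.82 to -0.85 (FDR 0.0503 to 0.059).

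Without both polysomal libraries of replicate 3, NUP188 remained called (-0.80, SE 0.13, FDR = 0.00236), and 2 members were higher, where 5.47% of all genes were higher and 3.97% lower. NUP85 gained 0.64 (SE 0.13, FDR = 0.00717). With CNOT1 siRNA its polysomal level was 125, 134 and 115 CPM in replicates 1, 2 and 4, against 117, 126 and 112 CPM with control siRNA, beside the subpolysomal fall given above. NUP43, another Y complex subunit, gained 0.68 (SE 0.19, FDR = 0.034). Its subpolysomal level was 257, 260, 195 and 178 CPM with control siRNA and 194, 192, 165 and 153 CPM with CNOT1 siRNA, which overlapped, and its polysomal level went from 192, 216 and 204 CPM to 267, 264 and 247 CPM in replicates 1, 2 and 4, which did not.

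In the TNRC6 experiment, edgeR without the block called 0 of 30 members and 0% of 14064 genes in either direction. With an unadjusted p under 0.05, 173 genes were higher and 116 lower, none of them members, and 1 gene, not a member, passed in DESeq2. The members' log2 fold changes ran from -0.30 for RAE1 (SE 0.20) to 0.46 for NUPL1 (SE 0.21), with a median of 0.02 beside -0.03 for all genes. RAE1 held 118 and 102 CPM with control siRNA and 90.7 and 87.5 CPM with TNRC6A/B siRNA, ranges that did not overlap but that were not distinguishable from the spread between these 4 libraries. The summed nucleoporin level was 6728 and 6397 CPM with control siRNA and 6994 and 6477 CPM with TNRC6A/B siRNA, so the replicates differed more than the groups. Within each same-numbered pair the sum was higher with TNRC6A/B siRNA. Same-numbered libraries deviated together (correlation 0.922). With the replicate number as a block, 3.7% of all genes were higher and 1.73% lower, 0 of them members.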

How the data were processed

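The deposited files hold counts, 1 whole number per gene symbol and library, which the authors obtained by sequencing stranded poly(A)-selected RNA, mapping reads onto hg19 with TopHat2 and counting them by htseq-count; the strand option was not given in the sources used here. A further deposited table holds the authors' own comparisons of each IP with total RNA (fold changes and p-values) and was not used. Reads carry no molecular identifiers, so depth covers counting error only.

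Counts were tested with edgeR 4.0.16 (R 4.3.3, limma 3.58.1): filterByExpr, TMM factors and two-sided quasi-likelihood F-tests on group means, with a member called where its Benjamini-Hochberg FDR, taken over every gene tested, was under 0.05. One fit held the 12 RIP libraries, one the 16 fraction libraries (polysomal ratio and its change), one the 4 TNRC6 libraries, and the CNOT1 siRNA effect was fitted within each pool of 8 libraries. SE is the log2 fold change divided by the root of F. The script was tested on simulated counts. Same-numbered libraries were checked for shared deviations (genes of at least 5 CPM). Every pair correlated by more than 0.1 in the RIP experiment (0.202 to 0.876), input (0.162 to 0.571), subpolysomal RNA (0.745 to 0.86) and the TNRC6 experiment (0.922). Blocked counts of members are therefore given too. RIP total RNA replicate 3 is numbered by its title, while its description says replicate 2. The same number was not always the closest match: total RNA replicate 1 was closest to replicate 2 of the eIF4A1 and DDX6 IPs. Control input replicate 4 was closest to CNOT1 siRNA input replicate 3.

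The members, their roles and the lists were chosen with earlier results of these data known. Per comparison, the 2 called members with the largest rise and the 2 with the largest fall are given by library; others by counts or single values. No 2 libraries of the same group agreed within sampling noise. Features come from GENCODE release 44 on GRCh37, 1 transcript per gene; NUPL1 and NUPL2 were matched through RefSeq synonyms. A planned count of protein repeats was not made, as protein sequences were not used here. Alternatives were RLE factors, no filter, DESeq2 1.42.0, a replicate block, other sets of libraries and leaving out each library.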

Additional observations from a re-analysis of the deposited data

Results flagged for a closer look

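In groups of 4, 1 library stood apart from the other 3 by Dixon's criterion in 5 of the 40 sets tested. The CNOT1 polysomal sets were included with their mismatch already known. The other sets were of members named by their fold changes, some of them in fits without replicate 3. The number of flags can therefore not be compared with a chance rate. CNOT1 was at 643 CPM in the library labelled CNOT1 siRNA polysomal replicate 3, against 24.5 to 32.3 CPM in the other 3. It was at 28.8 CPM in the library labelled control siRNA polysomal replicate 3, against 478 to 509 CPM. NUP160 was at 480 CPM in that same control polysomal library, against 208 to 240 CPM in its group. NUP188 was at 372 CPM in the library labelled CNOT1 siRNA polysomal replicate 3, against 314 to 322 CPM, and at 315 CPM in CNOT1 siRNA subpolysomal replicate 4, against 283 to 287 CPM.

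The effect of CNOT1 siRNA on NUP188 differed between polysomal and subpolysomal RNA in the interaction test, by -0.84 on the log2 scale (SE 0.16, FDR = 0.0225).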

How the results depend on the processing

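Of 271 alternative values for 21 named member results, 239 kept their direction and their side of the threshold, 32 lost the call and 0 reversed. Counts of members called stayed within 1.5 times the main count in 249 of 306 alternatives. This tally takes 0 beside 0 as unchanged, also in fits that called no gene at all, so it overstates stability. Where counts moved further, the cause was not tested unless the libraries left out are named.

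With the replicate block, members higher and lower numbered 5 and 0 for the eIF4A2 against the eIF4A1 IP, 4 and 4 against the DDX6 IP, 2 and 0 for the DDX6 against the eIF4A1 IP, 12 and 7 for CNOT1 siRNA in subpolysomal RNA, and 1 member (NUP50) was higher in the eIF4A2 IP than in total RNA. In that blocked comparison of the eIF4A2 IP with total RNA, 30.4% of all genes were higher. In the RIP, input and subpolysomal fits the block changed no other count by over 1.5 times. Same-numbered polysomal libraries did not deviate together (correlations -0.569 to 0.12). That check included the libraries labelled replicate 3 and was not rerun without them. It therefore cannot say whether the remaining same-numbered polysomal libraries belong together. In the TNRC6 experiment same-numbered libraries deviated together (correlation 0.922, over 2 pairs). The block called 520 higher and 243 lower genes in that experiment, 0 of them members. Without both polysomal libraries of replicate 3, CNOT1 siRNA in polysomal RNA gave 11 and 2 members (18 and 3 with the block). Of all genes, 21.8% and 18.9% were called (31.2% and 27.1% with the block). The ratio change then gave 2 higher (3 with the block), beside 5.47% of all genes (9.85% with the block).

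With RLE factors, with no filter, or with only the 6 compared libraries, 0 members were higher in the eIF4A1 IP than in total RNA. The shares of all genes were 25.2%, 15% and 27.1%. With DESeq2 or only the 6 libraries, 1 was higher in the eIF4A2 IP, beside 20.3% and 26.9% of all genes. No filter gave 1 higher for the eIF4A2 against the eIF4A1 IP (1.41% of all genes). Against the DDX6 IP it gave 0 higher and 1 lower (5.27% and 7.44%). With CNOT1 siRNA it gave 2 and 1 lower in input and subpolysomal RNA (15% and 6.02%). DESeq2 gave 3 higher (eIF4A2 against eIF4A1 IP), 1 lower (eIF4A2 against DDX6 IP), 1 higher (DDX6 against eIF4A1 IP) and 1 higher (ratio change). The shares of all genes were 2.71%, 14.6%, 3.19% and 2.07%. Only the 6 libraries gave 1 higher for the eIF4A2 against the DDX6 IP, beside 8.27% of all genes. In 1 fit of 24 gradient libraries, 5 rose and 2 fell in input, beside 13.4% and 15.6% of all genes. In that fit 5 fell in subpolysomal RNA (19.1% of all genes) and 1 was higher in the ratio change (3.26%).

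Leaving out 1 library at a time gave, for higher and lower members, 0 to 1 and 20 to 24 (eIF4A1 IP), 0 to 1 and 18 to 20 (eIF4A2 IP), 0 and 19 to 21 (DDX6 IP), 0 to 1 and 0 (eIF4A2 against DDX6 IP), 17 to 20 and 1 (fractions), 11 to 12 and 2 to 4 (input), 4 to 7 and 1 to 2 (subpolysomal), 0 to 1 and 0 to 1 (ratio change), and 0 elsewhere.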

Other observations

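A list of 37 transport receptors, Ran cycle proteins and export factors, the soluble partners of the pore, was counted beside the nucleoporins; genes named here were chosen after their values were seen. In the eIF4A1, eIF4A2 and DDX6 IPs, 21, 23 and 19 were lower than in total RNA (26.5%, 25.8% and 23.3% of all genes were) and 5 were higher in each (26.1%, 24.5% and 22.7% of all genes). CSE1L, which returns importin alpha to the cytoplasm, was lowest in the eIF4A1 IP (log2 fold change -1.88, SE 0.13) and in the DDX6 IP (-1.58, SE 0.12), and IPO11, an importin, in the eIF4A2 IP (-1.63, SE 0.12). SENP2, a SUMO protease that docks at the pore, was higher in these IPs (0.93, 0.84 and 1.02, SE 0.14 each). Directly between IPs, NUTF2, the import factor of Ran, was lower in the eIF4A2 than in the DDX6 IP (-1.24, SE 0.22), as were RAN (-0.56) and KPNA4 (-0.40). These 3 were all that were lower, where 11.3% of all genes were, and 0 were higher, where 9.82% were.

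With control siRNA, 27 of the 37 were higher and 2 lower in polysomal RNA, where 32.7% and 35.3% of all genes were, and 29 and 2 without both polysomal libraries of replicate 3, where 32.2% and 37% were. They were led by KPNA2 (1.82, SE 0.13) and KPNB1 (1.46, SE 0.12), which together import classical cargo. After CNOT1 siRNA, 15 rose and 10 fell in input RNA, where 30.9% of all genes rose and 30% fell, and in 1 fit of all 24 gradient libraries 1 rose and 4 fell, beside 13.4% and 15.6%. In the fit of input RNA, RANGAP1, the Ran GTPase activator, was highest (0.52, SE 0.06) and the import receptor TNPO1 lowest (-0.58, SE 0.05). In subpolysomal RNA 7 rose, led by XPO6 (1.02, SE 0.10), and 1 fell, TNPO2 (-0.45, SE 0.14), where 12.6% of all genes rose and 15.2% fell. With the replicate block 11 rose and 5 fell, beside 27% and 31.2%. In polysomal RNA 0 of the list were called with all libraries, and 8 rose and 6 fell without both libraries of replicate 3, beside 21.8% and 18.9%. With all libraries, SENP2 was the 1 gene of the list whose polysomal to subpolysomal ratio was called changed (-0.85, SE 0.20). Among all genes, 0.576% were higher and 0.376% lower. Without both polysomal libraries of replicate 3, 4 were called: TNPO2 (1.08, SE 0.19) and the mRNA export factor NXF1 (0.65, SE 0.16) were higher, and XPO6 (-0.59, SE 0.14) and SENP2 (-0.93, SE 0.20) lower. Of all genes, 5.47% were higher and 3.97% lower in that fit.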
